A study of Mus musculus with 6 samples.

Results

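The unfolded protein response and the integrated stress response were followed through 39 genes in R1 mouse embryonic stem cells, with and without a short hairpin RNA (shRNA) against Pcl2. The genes were chosen by name, as sensors, transcription factors, Atf4 targets, phosphatase subunits, chaperones, disulfide isomerases and degradation factors of the endoplasmic reticulum (ER). All 39 had a probe set assigned to a single gene and all 39 passed the filter on dim signals, among 13095 genes tested. The brightest of 90 probe sets stood for each gene.

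R1 is an established mouse embryonic stem cell line, kept undifferentiated here in serum medium with leukaemia inhibitory factor. One group stably expressed the mismatch control shRNA sequence and the other stably expressed the Pcl2 shRNA, with 3 samples in each. The labels call the samples biological replicates and state that the shRNA samples came from 1 clone, so the shRNA and the clone cannot be told apart. Pcl2 is the protein of the gene Mtf2, a partner of Polycomb repressive complex 2. The arrays were Affymetrix whole-genome mouse arrays, and signals below are MAS5 signals on a linear scale, given for samples 1, 2 and 3 of a group in that order or as mean ± SD (n = 3).

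When unfolded proteins collect in the ER, the membrane sensors Ern1 (IRE1), Eif2ak3 (PERK) and Atf6 start the unfolded protein response. Ern1 splices Xbp1 mRNA, Atf6 is cut into a transcription factor, and both raise ER chaperones and degradation factors. Eif2ak3, like the amino acid sensor Eif2ak4 (GCN2), phosphorylates the initiation factor eIF2alpha, which lowers general translation, raises Atf4 protein and so induces genes of amino acid supply, Atf3, Ddit3 and Trib3. Part of this control is translational or by splicing and protein cleavage, which transcript signals do not measure.

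Both branches have known promoter elements, and these were searched in RefSeq promoter windows (GRCm38.p6), which held 34 of the 39 genes. The ER stress element (ERSE), read by Atf6 and Xbp1, was searched as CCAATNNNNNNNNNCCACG, and its second form (ERSE-II) as ATTGG and CCACG with any 1 base between. The C/EBP-ATF response element (CARE), read by Atf4, was searched as TGATGNAA, and the unfolded protein response element as TGACGTGG. Both strands of the 250 bases before each start were read, and no matches of different elements overlapped in these genes. ERSE letters stood before 9 of the 34 genes (26.5%), compared with 37 of all 32851 windows (0.113%). CARE letters stood before 5 of the 34 (14.7%), compared with 3.45% of windows. ERSE-II occurred before Herpud1 alone among them (0.0304% of windows), and the unfolded protein response element before none (0.563% of windows). Such a match describes the sequence and is neither a site of binding nor a cause. The shares of the 34 count genes, which had 37 windows. The shares beside them count windows, with those of the 34 genes included.

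The stretches below show both elements, because the spread between samples is given by element further on. They are written 5′ to 3′ on the strand of the gene, with the matched letters in capitals. The first 4 hold the ERSE: Hspa5 (chr2:34772017-34772051, 73 to 39 bases before the start), Canx (chr11:50325792-50325826), Pdia6 (chr12:17266483-17266517) and Syvn1 (chr19:6046524-6046558). Canx lies on the minus strand and the other 3 on the plus strand.
Hspa5: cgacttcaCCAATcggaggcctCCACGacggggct
Canx: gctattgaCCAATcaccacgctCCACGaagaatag
Pdia6: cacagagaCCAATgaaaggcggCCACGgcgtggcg
Syvn1: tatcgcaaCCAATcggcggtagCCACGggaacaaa
Each of the next 4 holds the CARE, in reverse in the first 3: Atf3 (chr1:191183424-191183455, minus strand), Nupr1 (chr7:126625561-126625592, minus strand), Chac1 (chr2:119351037-119351068, plus strand) and Asns (chr6:7693213-7693244, minus strand, 35 to 4 bases before the start).
Atf3: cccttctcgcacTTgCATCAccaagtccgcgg
Nupr1: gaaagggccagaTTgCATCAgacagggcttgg
Chac1: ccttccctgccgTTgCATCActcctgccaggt
Asns: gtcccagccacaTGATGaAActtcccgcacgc
Herpud1 (chr8:94386309-94386395, plus strand) holds a CARE in reverse and then the ERSE-II.
Herpud1: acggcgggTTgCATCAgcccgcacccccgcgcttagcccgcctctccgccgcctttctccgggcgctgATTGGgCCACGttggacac

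The labels were checked on the targeted gene first. Mtf2 signals were 1951, 1513 and 1704 in the control and 1048, 1167 and 869.6 in the shRNA cells, so that every shRNA sample lay below every control sample (log2 fold change -0.74, SE 0.17, limma adjusted p = 0.0157). That call was lost without control sample 1 (adjusted p = 0.0519) or without shRNA sample 3 (adjusted p = 0.0574). All 10 embryonic stem cell markers were above background, taken as a signal of 20.3, on every array, and 6 of them rose. Their summed signal was 22909 to 28861 in the control and 38294 to 48937 in the shRNA cells. Of 8 fibroblast markers 2 were above background on every array, and Dcn and Lum were at background on all. Their sum was 969, 375 and 416 in the control and 589.5, 272 and 279 in the shRNA cells, highest in sample 1 of both groups. Of 8 endoderm markers 3 were above background, Afp, Ttr and Apoa1 were at background on all, and the sum was 166 to 213 against 179.9 to 188. Of the 7 measured markers of secretory cells, in which these pathways are prominent, 3 were above background and Pax4 was at background on all. Their sum was 529 to 663 against 398 to 436. Most of it was Sdc1, which fell from 463 ± 93.7 to 238 ± 5.50 (log2 -0.92, adjusted p = 0.00743). Every other measured marker had a higher mean in the shRNA cells. Of these, Chga (42.2 ± 14.3 and 73.6 ± 11.3, without overlap) and Muc2 (28.1 ± 8.80 and 36.2 ± 3.42) were above background, and neither passed. The part of these shifts in the results was not tested, and in bulk RNA fewer cells with a transcript and less of it per cell cannot be told apart.

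Few of the stress response genes passed the threshold, at a share near that of all genes, and those that passed did not move in a common direction. Xbp1 and the chaperone Dnajb9 rose, Atf3 and Eif2ak3 fell, and 35 of the 39 did not pass the threshold of a limma adjusted p below 0.05. This was 4 of 39 (10.3%), where 12.6% of all genes passed; 2 rose, where 4.46% of all genes did, and 2 fell, where 8.16% did. The median log2 fold change of shRNA over control was -0.06 for the 39 genes and 0.02 for all genes tested, and 30 of the 39 lay within 0.5 of 0. The groups did not overlap for 9 of the 39 (23.1%), compared with 31.2% of all genes. An unadjusted limma p under 0.05 was reached by 9 of the 39, and by 3417 of all 13095 genes. The counts at that level by role and list below stand beside this one. All 39 were above background on every array, with mean signals from 84.5 for Eif2ak4 to 3696 for Psat1.

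The samples of each group carry the numbers 1 to 3, and a fit with the number as a replicate block called 8 of the 39 (20.5%), against 23.8% of all genes. It added Nupr1 (block adjusted p = 0.0296) and Ppp1r15b (0.0227) among the higher genes, and Edem1 (0.0365) and Syvn1 (0.0249) among the lower.

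**Figure D1:**
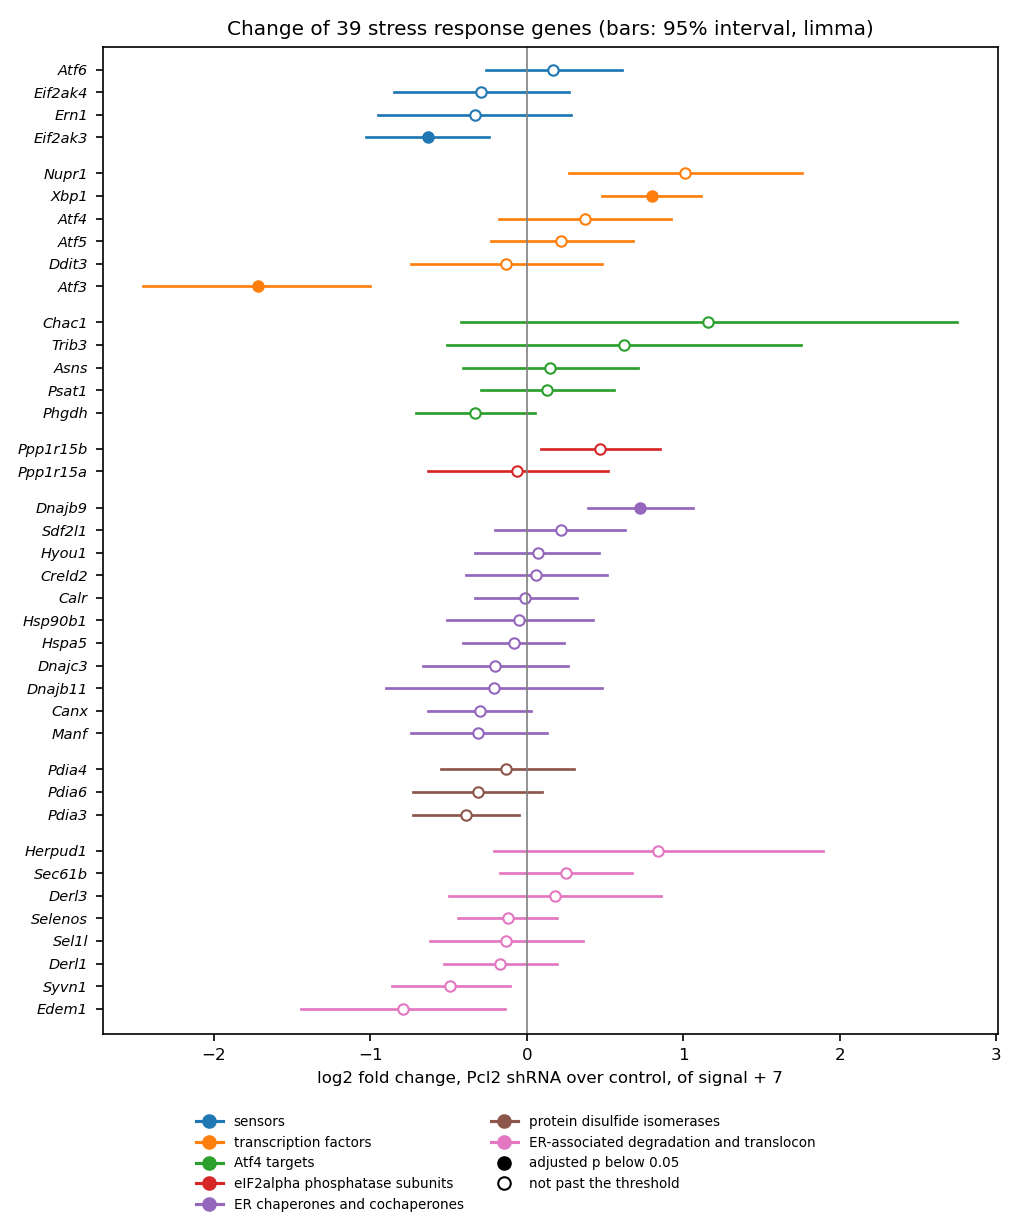
Log2 fold change of each of the 39 genes, Pcl2 shRNA over mismatch control, on log2(signal + 7), with its 95% confidence interval from limma, grouped by role. Filled points are the 4 genes past the threshold, which are Eif2ak3 and Atf3 below 0 and Xbp1 and Dnajb9 above it; the widest intervals are those of Chac1, Trib3 and Herpud1.

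Among the 4 sensors, Eif2ak3, the kinase that phosphorylates eIF2alpha in ER stress, fell to 64.0% of the control level. Its signals were 305, 304 and 356 in the control and 171, 222 and 224 in the shRNA cells. Every shRNA sample was below every control sample (log2 -0.63, SE 0.18, adjusted p = 0.0422). The call stood close to the threshold: it was lost in each of the 6 fits that left out an array (adjusted p 0.0637 to 0.141). Quantile normalization (0.0591), no filter (0.0540) and no variance trend (0.0609) also ended it. The other 2 Eif2ak3 probe sets were at background and gave no second reading.

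Ern1, the kinase and endonuclease that splices Xbp1 mRNA, gave 109.6, 79.6 and 149.7 in the control and 63.8, 84.4 and 115 in the shRNA cells. The groups overlapped, and the difference of -0.33 did not pass (SE 0.28, 95% interval -0.95 to 0.28, adjusted p = 0.509). Atf6 was at 103 ± 16.8 and 116 ± 7.92 (log2 0.17, interval -0.26 to 0.61), and Eif2ak4 at 94.2 ± 27.0 and 74.7 ± 14.7 (log2 -0.29, interval -0.85 to 0.27). In all 4 sensors shRNA sample 1 was the lowest of its group.

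Of the 6 transcription factors, Xbp1 rose, Atf3 fell and 4 did not pass. Xbp1, the factor made active by Ern1, gave 830.1, 907 and 757 in the control and 1434, 1403 and 1497 in the shRNA cells. The groups lay far apart beside the spread within them, with SDs of 75.3 and 47.7, and the shRNA level was 174% of the control (log2 0.80, SE 0.14, interval 0.48 to 1.11, adjusted p = 0.00524). The other 3 Xbp1 probe sets gave 0.87, 0.71 and 0.83, each without overlap. The call held in all 13 alternative settings and in all 6 fits without an array. These probe sets report the transcript, and its splicing was not measured here.

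Atf3, a repressor of the same basic leucine zipper family that many stresses induce, moved the other way. It gave 165, 402 and 162 in the control and 50.4, 69.5 and 68.1 in the shRNA cells, or 25.8% of the control level. Control sample 2 stood at 2.44 times the next control, yet the lowest control was above every shRNA sample (log2 -1.72, SE 0.33, adjusted p = 0.00681). Without control sample 2 and in the other fits that left out an array, the change lay between -1.94 and -1.30 and passed.

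Atf4, the factor whose translation rises when eIF2alpha is phosphorylated, gave 1379.7, 2087 and 1446 in the control and 1458, 2175 and 2838 in the shRNA cells. Sample 1 was the lowest of both groups, the groups overlapped and the difference did not pass (log2 0.37, SE 0.25, interval -0.18 to 0.92, adjusted p = 0.397). A second bright Atf4 probe set gave 1416, 1046 and 1024 against 1779, 1929 and 1814. Its groups did not overlap and its log2 difference was 0.68, so the probe sets disagree on the size and on the order of the samples, and on this one control sample 1 was the highest.

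Ddit3 (CHOP), the factor linked to cell death in lasting ER stress, gave 119, 136 and 115 in the control and 69.8, 122 and 161 in the shRNA cells. The shRNA samples surrounded the controls (log2 -0.13, interval -0.74 to 0.48, adjusted p = 0.818). A dimmer Ddit3 probe set gave 0.79 without overlap, with signals of 24.6 ± 7.47 and 47.8 ± 15.1, and its control sample 1 was below background (17.2). The 2 probe sets thus disagree. Atf5, a relative of Atf4, was at 152 ± 34.6 in control and 176 ± 7.50 in shRNA samples (log2 0.22, adjusted p = 0.556).

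Nupr1, a small stress-induced chromatin protein, was examined per sample after its values were seen, as were Trib3, Chac1, Herpud1 and Edem1 below. It gave 94.3, 115 and 68.9 in the control and 107, 217 and 294 in the shRNA cells. Samples 2 and 3 of the shRNA group were above all controls and sample 1 was among them (log2 1.01, SE 0.33, adjusted p = 0.0765). Without shRNA sample 1 the difference was 1.41 (adjusted p = 0.0116), and array weights also brought it past the threshold (0.0297).

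**Figure D2:**
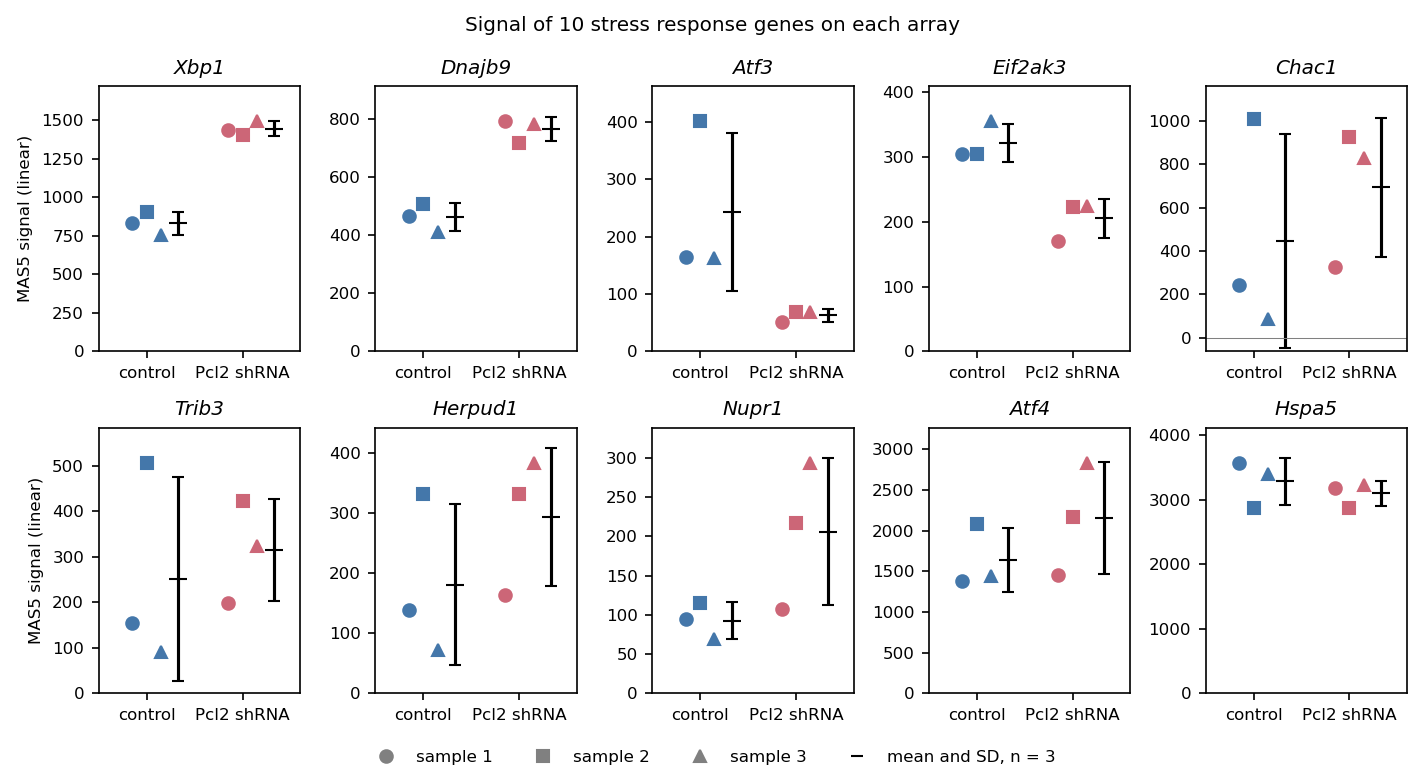
MAS5 signal on a linear scale of 10 stress response genes on each of the 6 arrays, with the sample number as the symbol and mean and SD (n = 3) in black. Xbp1, Dnajb9, Atf3 and Eif2ak3 do not overlap between the groups; in Chac1, Trib3 and Herpud1 control sample 2 lies far above the other controls and shRNA sample 1 below the other shRNA samples.

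None of the 5 Atf4 targets passed limma, none had an unadjusted p under 0.05 and none passed with the replicate block. Psat1, an enzyme of serine synthesis and the brightest of all 39, gave 2845, 4224 and 3518 in the control and 3283, 3625 and 4684 in the shRNA cells (log2 0.13, interval -0.29 to 0.56). Phgdh, the first enzyme of that pathway, gave 1397, 1502 and 1707 against 1094, 1097 and 1501 (log2 -0.33, interval -0.71 to 0.05, adjusted p = 0.262). The shRNA samples of Phgdh were mostly below the controls, with sample 3 level with control sample 2. Asns, asparagine synthetase, was at 2958 ± 720.3 and 3345 ± 1146 (log2 0.15, interval -0.41 to 0.71).

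Chac1 and Trib3 varied more within the groups than between them. Chac1, a glutathione-degrading enzyme that Atf4 induces, gave 244, 1010.2 and 83.9 in the control and 327, 925 and 831 in the shRNA cells. The highest control was 12 times the lowest, and the fitted difference had a wide interval (log2 1.16, SE 0.71, interval -0.42 to 2.75, adjusted p = 0.349). Trib3, a pseudokinase that restrains Atf4, gave 155, 507 and 90.7 against 199, 423 and 324 (log2 0.62, SE 0.51, interval -0.51 to 1.75, adjusted p = 0.507). Both calls turned on control sample 2: without it Chac1 was higher by 2.08 (adjusted p = 0.0322) and Trib3 by 1.29 (adjusted p = 0.0399). Over the fits that left out an array, the difference ranged from 0.34 to 2.08 for Chac1 and from 0.10 to 1.29 for Trib3.

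This order of the samples was noticed after the values were seen and was then counted. Control sample 2 was the highest control and shRNA sample 1 the lowest shRNA sample in 14 of the 39 genes (35.9%), compared with 14.3% of all genes. Those 14 were Atf4, Atf3, Atf5, Ddit3, Nupr1, Trib3, Chac1, Psat1, Ppp1r15a, Ppp1r15b, Herpud1, Syvn1, Derl3 and Sec61b. They included 5 of the 6 transcription factors and 3 of the 5 Atf4 targets, but 0 of the 11 chaperones and 0 of the 4 sensors. The counts rest on the brightest probe set. The second probe sets of Nupr1, Trib3 and Herpud1 had the same order, and those of Atf4, Psat1, Syvn1, Ppp1r15b and Ddit3 did not. The rest of the 14 have a single probe set. Outside the 14, a dimmer Atf6 probe set and a dimmer Phgdh probe set also had this order.

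Taken alone, and on the brightest probe set, control sample 2 was the highest control in all 6 transcription factors and in 3 of the 5 Atf4 targets. It was so in 19 of all 39 genes (48.7%), where 28.9% of all genes had it highest. On the other Xbp1 probe sets and the second bright Atf4 probe set, control sample 1 was the highest instead. The second Ddit3 and Nupr1 probe sets kept control sample 2 highest. On the brightest probe set, control sample 2 was the lowest control in 12 of the 39 (30.8%, against 38.8% of all genes), among them Ern1, Eif2ak3, Eif2ak4, Hspa5, Hsp90b1 and Edem1. Atf3, Trib3, Chac1 and Herpud1 (10.3% of the 39) had control sample 2 at over 1.5 times the next control, which 1.99% of all genes had. In the shRNA group, sample 1 was the lowest in 25 of the 39 (64.1%), against 41.5% of all genes.

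**Figure D3:**
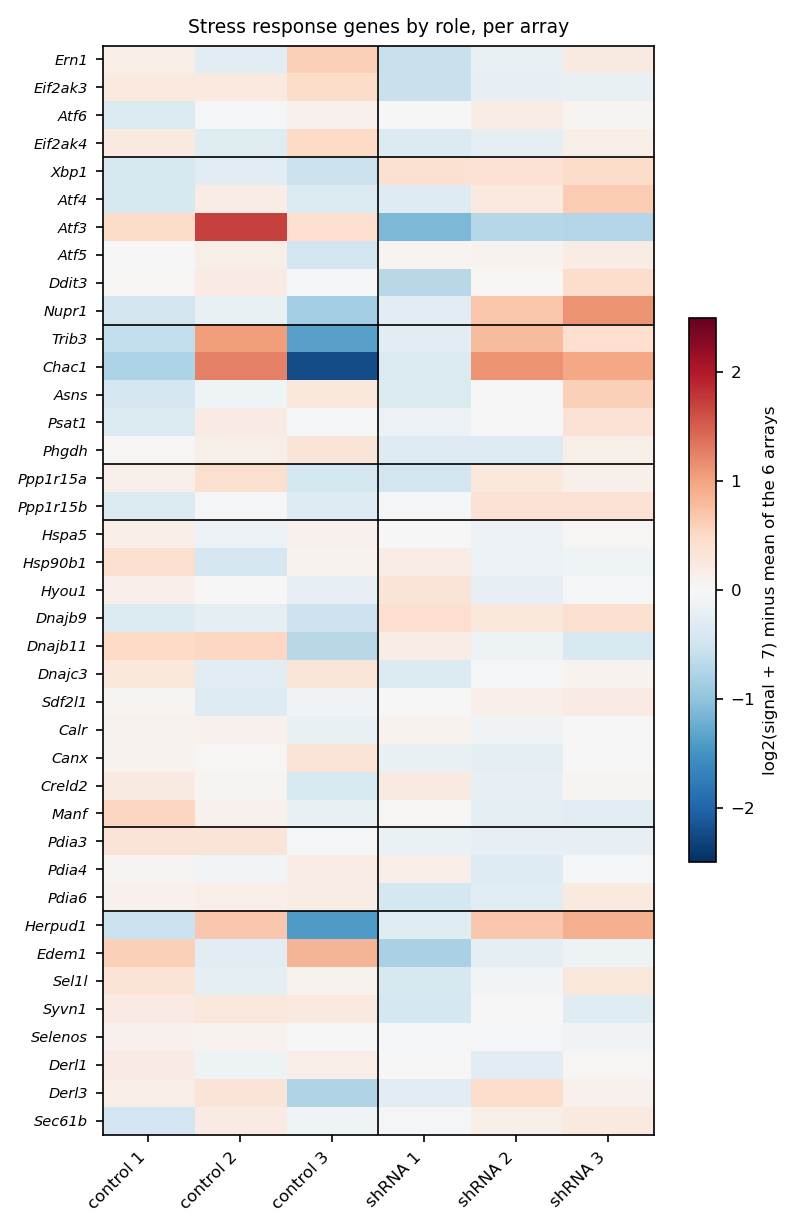
Deviation of each gene's log2(signal + 7) from its mean over the 6 arrays, with genes in rows by role and arrays in columns. Control sample 2 is red for Atf3, Trib3, Chac1 and Herpud1, control sample 3 is blue for the last 3 of these, and Xbp1 and Dnajb9 are blue in the controls and red in the shRNA samples.

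Of the genes with CARE letters, Atf3, Chac1 and Herpud1 had wide spreads among the controls, and the genes with ERSE letters had narrower ones than these. Over Asns, Atf3, Chac1, Herpud1 and Nupr1 the highest control was 1.62 to 12 times the lowest (median 2.48), and control sample 2 was the highest in 4 of the 5. Over the 9 genes with ERSE letters that ratio was 1.06 to 2.27 (median 1.24), and control sample 2 was the highest in 3. For all genes tested its median was 1.44, and for the 39 genes 1.49. Asns, at 1.62, and Nupr1, at 1.66, lay near these medians. Derl3, at 2.27, and Hsp90b1, at 1.78, were the widest of the ERSE genes. Trib3, Dnajb11 and Edem1, which are in neither set, had ratios of 5.59, 2.38 and 2.23, and the remaining genes in neither set had lower ones. The log2 differences between the groups ranged from -1.72 to 1.16 for the CARE genes, of which Atf3 fell and 4 did not pass. They ranged from -0.49 to 0.18 for the ERSE genes, of which 0 passed limma, 1 had an unadjusted p under 0.05 and 1, Syvn1, passed with the replicate block. These are descriptions of small sets, and no test was made between them.

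Neither subunit that directs protein phosphatase 1 to eIF2alpha passed limma, though 1 of the 2 had an unadjusted p under 0.05. Ppp1r15b, the constitutive subunit, gave 637, 788 and 649 in the control and 797, 1049 and 1044 in the shRNA cells. Its groups did not overlap, by a small margin (log2 0.47, SE 0.17, adjusted p = 0.102). It passed with the replicate block, as above, and with array weights (0.0361). A dimmer Ppp1r15b probe set, at 42.9 ± 25.2 and 47.8 ± 13.4, gave 0.22 with overlap. Ppp1r15a (GADD34), the stress-induced subunit, was at 464 ± 132 in control and 444 ± 116 in shRNA samples (log2 -0.06, interval -0.63 to 0.52).

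Of 11 ER chaperones and their partners, Dnajb9 rose and 10 did not pass. Dnajb9 (ERdj4), a cochaperone of Hspa5 that Xbp1 is known to induce, gave 467, 507 and 412 in the control and 795, 718 and 783 in the shRNA cells. All shRNA samples were above all controls, at 166% of the control level (log2 0.72, SE 0.15, interval 0.39 to 1.06, adjusted p = 0.0112). The call held in all 13 alternative settings and all 6 fits without an array. Dnajb9 has a single probe set.

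Hspa5 (BiP), the main ER chaperone and the usual readout of ER stress, did not separate the groups. It gave 3572, 2876 and 3403 in the control and 3185, 2870.2 and 3233 in the shRNA cells (log2 -0.08, SE 0.15, interval -0.41 to 0.24, adjusted p = 0.788). Sample 2 was the lowest of both groups. Its partner Hsp90b1 (GRP94) was at 2922 ± 811 and 2766 ± 366, with a log2 difference of -0.05 (interval -0.51 to 0.42).

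The lectin chaperones were bright. Calr was at 3120.3 ± 342 and 3096 ± 198 (log2 -0.01, interval -0.33 to 0.32), a range that leaves out a rise as large as that of Xbp1. Canx gave 2957, 2835 and 3470.2 against 2423, 2347 and 2749. Its groups did not overlap and the difference did not pass (log2 -0.30, interval -0.63 to 0.03, adjusted p = 0.237). Hyou1, Dnajb11, Dnajc3, Sdf2l1, Creld2 and Manf had log2 differences from -0.31 for Manf to 0.22 for Sdf2l1, with overlapping groups. Dnajb11 was uneven among the controls, at 399, 408 and 171.

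Protein disulfide isomerases form and correct the disulfide bonds of secreted proteins, and 0 of 3 passed limma, 1 of them with an unadjusted p under 0.05. Pdia3, which works with Calr and Canx, gave 2136, 2143 and 1653 in the control and 1521, 1479 and 1479 in the shRNA cells. Every shRNA sample was below every control (log2 -0.39, SE 0.15, interval -0.73 to -0.05, adjusted p = 0.127; 0.0506 with the replicate block). The other Pdia3 probe set was dim, at 31.9 ± 7.17 and 33.8 ± 4.23, and gave 0.08. Pdia6 was at 1105 ± 30.7 and 908 ± 235 (log2 -0.31, interval -0.73 to 0.10), and Pdia4 at 175 ± 16.5 and 161 ± 28.0 (log2 -0.13).

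Among the 8 genes of ER-associated degradation (ERAD) and the translocon, 0 passed limma. An unadjusted p under 0.05 was reached by 2, and by 3417 of all 13095 genes. With the replicate block 2 passed, both lower, where 13.8% of all genes fell. Syvn1 (HRD1), the ubiquitin ligase of ERAD, gave 428, 454 and 440.3 in the control and 273, 376 and 298 in the shRNA cells. The groups did not overlap (log2 -0.49, SE 0.17, adjusted p = 0.0914). The second Syvn1 probe set, at 260.4 ± 24.2 and 219.8 ± 32.1, gave -0.24 with overlap. Edem1, which directs misfolded glycoproteins to degradation, gave 483, 259.6 and 579 against 177, 266 and 289.8. Control sample 2 was as low as the shRNA samples (log2 -0.79, SE 0.29, adjusted p = 0.113). Without it the difference was -1.12 and passed (adjusted p = 0.0180). The second Edem1 probe set, at 288 ± 52.9 and 180.3 ± 29.1, gave -0.65 without overlap.

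Herpud1, an ER membrane protein that gathers ERAD factors, had the same order of controls as Chac1. It gave 139, 331 and 72.5 in the control and 164, 332 and 384 in the shRNA cells (log2 0.84, SE 0.47, adjusted p = 0.301). Without control sample 2 the difference was 1.39 (adjusted p = 0.0499). Sec61b, a translocon subunit and the brightest of the 8, gave 1959, 3188 and 2563 against 2708, 3043 and 3272, with overlap (log2 0.25, adjusted p = 0.457).

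Selenos, a selenoprotein of the ERAD complex, lay lower in every shRNA sample but by little on its brightest probe set, from 667 ± 27.6 to 611 ± 12.7 (log2 -0.12, interval -0.44 to 0.19). A dimmer Selenos probe set, at 107 ± 15.7 and 73.9 ± 16.3, gave -0.51 without overlap, and another gave -0.24 with overlap. Sel1l, the partner of Syvn1, differed by -0.13, Derl1 by -0.17 and Derl3 by 0.18, each with overlap. Derl1 was read by 3 dimmer probe sets as well, which gave -0.53, -0.31 and -0.46, the first 2 of them without overlap.

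Across the 39 genes, 40 further probe sets were above background on every array, and 32 of them had the sign of the brightest probe set of their gene.

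The rest of these pathways was taken from 6 further lists with 125 genes, of which 119 had a single-gene probe set and 117 were tested. Of the 117, 2 rose and 5 fell, or 5.98% called, where 12.6% of all genes were. An unadjusted p under 0.05 was reached by 28 of the 117, and by 3417 of all 13095 genes. In the fit with the replicate block 8 and 19 did, or 23.1%, which is near the 23.8% of all genes. Of 10 eIF2 kinases and subunits of eIF2 and its exchange factor eIF2B, 0 passed limma, 1 had an unadjusted p under 0.05 and 0 passed with the block. The brightest, Eif2s2, gave 4803, 6120.5 and 4982 in the control and 6523, 6750.3 and 8163 in the shRNA cells (log2 0.43, adjusted p = 0.109). Eif2s3x gave 2462, 3154 and 2583 against 3183, 3268 and 3493 (log2 0.28, adjusted p = 0.264). The groups did not overlap for either subunit.

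Of 22 other targets of Atf4 and Ddit3, 1 rose and 0 fell, where 4.46% and 8.16% of all genes did. With the block 4 rose and 4 fell, where 9.97% and 13.8% of all genes did. Psph, the last enzyme of serine synthesis, gave 399, 663 and 464 in the control and 734, 992 and 1047 in the shRNA cells. All shRNA samples were above the controls (log2 0.87, SE 0.22, adjusted p = 0.0253). The call was lost with median centring (0.0634) and without control sample 1 (0.0878) or 3 (0.0604) or shRNA sample 2 (0.104) or 3 (0.0819). Control sample 2 was the highest control in 17 of these 22 genes (77.3%), and in 8 of them (36.4%) it exceeded the next control by over 1.5 times.

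The cytosolic aminoacyl-tRNA synthetases charge tRNAs with amino acids and many of them are induced by Atf4. Of 19 tested, 0 passed limma, 2 had an unadjusted p under 0.05 and 1 rose with the block, where 9.97% of all genes rose. Their median log2 difference was 0.25, with 16 of 19 (84.2%) above 0, beside a median of 0.02 and 52.4% above 0 for all genes. The brightest were Gars1, with 2319.9, 2875 and 2676 in the control and 2762, 2879.5 and 3335 in the shRNA cells, and Nars1, with 2396, 2797 and 1869 against 2389, 2926 and 3311. The groups of both overlapped. Control sample 2 was the highest control in 17 of the 19 (89.5%).

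**Figure D4:**
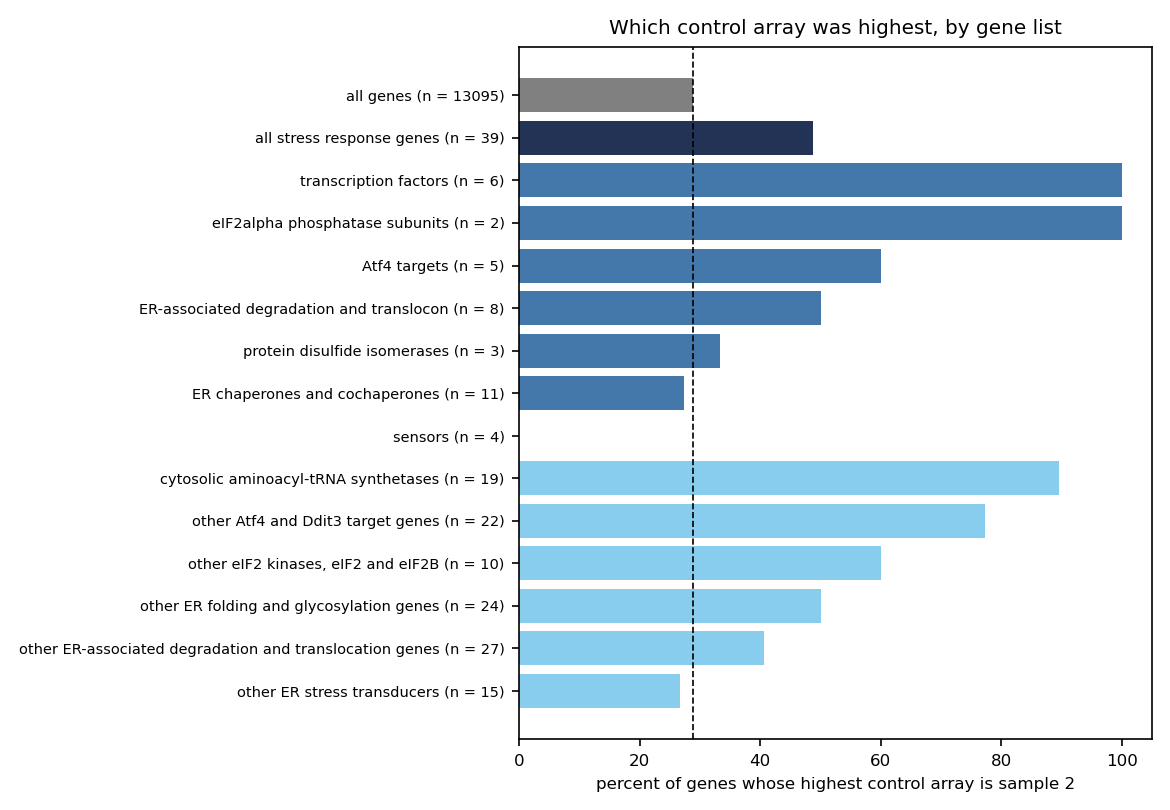
Percent of the genes of each list whose highest control was sample 2, for all genes tested (grey, dashed line at 28.9%), the 39 stress response genes and their roles (dark blue) and the further pathway lists (light blue). The aminoacyl-tRNA synthetases, at 89.5%, and other Atf4 and Ddit3 targets, at 77.3%, lie far to the right of the line, and the chaperones, at 27.3%, beside it.

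Of 15 other ER stress transducers 1 fell, and with the block 1 rose, Nfe2l2 (log2 0.45, block adjusted p = 0.0221), and 2 fell, the second being Tmbim6 (log2 -0.50, block adjusted p = 0.0138). Creb3, an ER-bound factor cut like Atf6, gave 398, 297 and 447 in the control and 137, 98.8 and 114 in the shRNA cells. The groups were far apart, at 30.6% of the control level (log2 -1.64, SE 0.21, adjusted p = 0.000864). The fall was smaller with its probe sets averaged (-1.28) and without cross-hybridising ones (-1.11), and passed in both.

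Of 24 other genes of ER folding and glycosylation 1 fell, and with the block 1 rose and 4 fell. This was 4.17% called, where 12.6% of all genes were, and 20.8% with the block, where 23.8% were. Rpn1, a subunit of the oligosaccharyltransferase, gave 1768, 2330 and 1775 against 879, 1035 and 1124. It was at 51.7% of the control level, without overlap (log2 -0.94, SE 0.17, adjusted p = 0.00524).

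Of 27 other ERAD and translocation genes 1 rose and 3 fell, or 14.8% called, where 12.6% of all genes were. With the block 1 rose and 9 fell, where 13.8% of all genes fell with the block. In 22 of the 27 (81.5%) the difference was below 0, as it was in 47.6% of all genes. Sec61a1, the channel of the translocon, gave 1942, 1742 and 1601 in the control and 898, 861 and 729 in the shRNA cells (log2 -1.08, SE 0.15, adjusted p = 0.00151). Its level was 47.1% of the control, while its partner Sec61b did not pass. The ubiquitin-conjugating enzymes of ERAD both fell: Ube2g2 gave 279.5, 254 and 252 in the control and 136, 133 and 133 in the shRNA cells (log2 -0.93, adjusted p = 0.00444). Ube2j1 gave 243, 170.3 and 265 against 122, 101 and 75.8 (log2 -1.13, adjusted p = 0.011). Neither overlapped between the groups. The 5 calls of lower genes in these lists held in every alternative and every fit without an array. Ssr2, a subunit of the translocon-associated complex, gave 1095, 1166 and 886 against 1487, 1535 and 1645, without overlap (log2 0.57, adjusted p = 0.0358). That rise was lost with median centring (0.114), without the variance trend (0.0751) and in 5 of the 6 fits without an array (0.0676 to 0.123).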

How the data were processed

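Total RNA was labelled and hybridised to 6 arrays. The authors used GCOS 1.4, per the labels, and MAS5, per the submitters' processing notes, and what they deposited is 1 linear intensity for each probe set. No detection calls were used, and the genome build of the files is not given in the sources used here. With 2% trimmed at both ends, every array had a mean of 150.001, and that scaling was left as it was. Median signals were 28.5 to 33.9, and 0 columns of per-sample values were left out. The number of arrays limits the precision.

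Of 45101 probe sets, 34945 named 1 gene in the platform annotation, 932 several and 9160 none, and 64 were controls. Symbols were updated through the GRCm38.p6 gene table (34741 of 34945), and aminoacyl-tRNA synthetases were matched through older symbols. Signals were transformed to log2(signal + 7), 7 being the 20th percentile of all values, which understates changes of dim genes. Probe sets with a mean log2 value at or above the 40th percentile (a signal of 20.2) were tested, 1 per gene, the brightest. Groups were compared with limma 3.58.1 in R 4.3.3 (lmFit, eBayes with trend), two-sided, with Benjamini-Hochberg adjustment over 13095 genes. P-values are adjusted unless named otherwise. For a single gene the exact permutation p of 3 against 3 samples (20 relabellings) cannot go below 0.1. Background was 20.3, the highest signal of 27 bacterial control probe sets without a spike. The script was tested on simulated data.

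Per-sample values are given for each gene past the threshold, the brightest and the smallest-p gene of each role, Ern1, Eif2ak3, Atf4, Ddit3, Xbp1 and Hspa5, and of each further list up to 4 genes past the threshold or the 2 brightest. Nupr1, Trib3, Chac1, Herpud1, Edem1, Canx and the second Atf4 probe set were added after their values were seen, as was the control series of Dnajb11. So were Nfe2l2 and Tmbim6, which are given by log2 difference and block adjusted p only. Tnfrsf10b, given by mean and SD, was also added after its values were seen. The genes and the lists were chosen with earlier results of these data known.

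Same-numbered samples deviated together from their group means (correlations of 0.25 to 0.397). Those of different number (-0.382 to -0.001) are pushed below 0 on average by centring each group and add no support. On these correlations alone, equal numbers were treated as pairs in the replicate block. The main fit held the group alone and no pairs. The labels do not say what a number marks. The alternatives were: median centring or quantile normalization; a pseudocount of 1 or 21; a filter at the 60th percentile or none; probe sets averaged per gene, or cross-hybridising ones left out; robust eBayes, or eBayes without trend; array weights; the replicate block; signals floored at background; and leaving out each array in turn.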

Additional observations from a re-analysis of the deposited data

How the results depend on the processing

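Of 740 values of the 39 genes under 19 alternatives, 720 kept the side of the threshold, 9 (Eif2ak3) lost the call and 11, over 7 genes, gained one. No called value changed direction, and 25 uncalled values changed sign. With the replicate block 3113 genes changed in place of 1652, stress response genes higher were 4 in place of 2, those lower 4 in place of 2, and the other pathway lists had 8 genes higher and 19 lower in place of 2 and 5. Array weights gave 4 stress response genes higher. Quantile normalization, no signal filter and eBayes without trend each gave 1 lower. In the other pathway lists, median centring gave 0 higher and eBayes without trend 1. Fits without 1 array gave 979 (without shRNA sample 2) to 1598 genes changed, 2 to 5 stress response genes higher (5 without control sample 2), 1 to 2 lower, 0 to 6 higher and 5 to 6 lower in the other lists, and a Mtf2 change of -0.84 to -0.63. Such fits have fewer samples; the cause of the other changes was not tested. Of 133 values of the 7 other pathway genes called, 12 (Psph and Ssr2) were not past the threshold. Median centring moved the median change of all genes from 0.02 to -0.04, and the share of higher among all calls from 35.4% to 26.2%. For a gene with a spread like that of Chac1, 3 samples a group leave an interval from -0.42 to 2.75.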
